A study of Homo sapiens with 24 samples.

Results

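LM2 cells, a derivative of the human breast cancer line MDA-MB-231 that was selected for growth in the lung, were compared with their parental line by RNA-seq and by ribosome profiling. The comparison covers 12 of the 24 libraries of the series, with 3 replicates per line and assay. A transcript was kept if its signal averaged 10 or more in the 6 RNA libraries and also in the 6 footprint libraries, which left 9342 of 11252 listed transcripts. The labels describe the parental line as poorly metastatic and LM2 as highly metastatic to the lung. No genetic change or drug treatment is named for either, both are cell populations of 1 line, and all replicates were grown in high-glucose DMEM with serum to about the same confluence. The series set out to compare how efficiently mRNAs are translated in lines of high and low metastatic capacity.

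Ribosome profiling sequences the short mRNA pieces that a translating ribosome shields from nuclease. A transcript's footprint signal reflects both how much mRNA there is and how densely ribosomes occupy it, so footprints are read against the RNA of the same cells. Efficiency here is log2 of the footprint signal minus log2 of the RNA signal, each with 1 added, and it is relative to each assay's scaling. All log2 changes are LM2 minus parental on this scale, which understates changes of low values. One well-studied class under such control is the TOP mRNAs, which begin with a C and a run of pyrimidines, encode ribosomal proteins and other parts of the translation apparatus, and are repressed as a group when mTOR signalling is low.

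The deposited table lists Ensembl transcript IDs without gene names, and 0 of them were found in the gene name tables used here. Names were therefore given from known transcript IDs of well-studied genes. Of 1451 symbols for which an ID was written down, 1246 had that ID in the table and 1176 were tested, 12.6% of the tested transcripts. IDs for 1382 of these symbols, 1527 IDs in all, were written before any value was looked up. Of these IDs 1176 were listed, where about 5.05% of neighbouring ID numbers are. Some symbols had more than 1 ID, and 85.1% of these symbols were listed. The IDs written later, among them 52 of the ribosomal proteins, TNS4, TFAP2C, GFPT2, TAGLN, HNRNPC and PDLIM5, lack that check, and a single name can be wrong. The named genes are mostly abundant and well studied and do not represent all transcripts, and the 8166 without a name are counted only. A value belongs to 1 transcript of a gene, so another isoform may behave differently.

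RNA values corresponded to 26810200 to 52584700 reads per library. The footprint signal of a library added up to between 1023090 and 1134510 in units that are not reads, so the footprint depth is unknown. The median SD between replicates (log2) was 0.07 in both lines for RNA, and 0.14 in LM2 and 0.16 in parental cells for footprints. Nothing in the labels ties the replicates to separate cultures. The p-values therefore describe only how these samples spread, which may be technical. Of 12 markers of the mesenchymal-like MDA-MB-231 line 10 were found and tested, and 3 of these rose and 4 fell in RNA. VIM, the intermediate filament protein of mesenchymal cells, had an RNA signal of 121410 ± 1405 in parental and 118210 ± 3052 in LM2 cells (SD, n = 3). None of the 10 blood and immune markers was among the named transcripts of the table. Of the fibroblast and endothelial markers only COL1A1 was, and of the 12 luminal markers ERBB2, KRT19 and XBP1 were. A name missing here can also be an ID that was not known. In bulk samples like these, fewer cells of a kind and less RNA per cell cannot be told apart.

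LM2 cells carried more RNA of several matrix, secreted and detoxifying genes and less RNA of several epithelial, lysosomal and glycolytic genes. RNA rose for 22.9% and fell for 30.8% of all 9342 transcripts (limma, adjusted p under 0.05), which is 53.7% called in all. Among the 1176 named transcripts 314 rose (26.7%) and 487 fell (41.4%), and the list counts below are to be read beside these shares.

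The largest named rise in RNA was COL1A1, the main chain of type I collagen. Its RNA signal was 131, 152 and 110 in the parental replicates and 1726, 1583 and 1776 in LM2. Its footprint signal was 11.6, 11.1 and 9.23 against 97.6, 73.0 and 85.6. The 2 lines did not overlap in either assay, and RNA rose by 3.69 ± 0.12 and footprints by 2.89 ± 0.21 on the log2 scale (limma, estimate ± SE, adjusted p = 7.2e-16 and 6.1e-13). TFAP2C, a transcription factor of the AP-2 family, rose by 3.55 ± 0.15 in RNA, from 126 ± 32.7 to 1446 ± 74.9 (SD, n = 3), and by 2.72 ± 0.22 in footprints.

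Other matrix and secreted products rose as well. SRGN, the proteoglycan of secretory granules, went from an RNA signal of 383 ± 49.0 to 2034 ± 145 (SD, n = 3), and STC1, a secreted glycoprotein, from 275 ± 50.9 to 1081 ± 29.1. COL6A1 and COL6A2, chains of type VI collagen, rose by 1.42 and 1.33 in RNA on the log2 scale, TNC (tenascin C) by 1.28, and FN1 (fibronectin) by 0.54. Of 21 tested extracellular matrix transcripts 12 rose and 6 fell in RNA, with a median change of 0.29 against -0.03 over all transcripts. The members that fell were COL4A2, COL5A1, LAMB1, THBS1, AGRN and HSPG2, of which HSPG2 (perlecan) fell by 1.43. With a minimum mean of 50 in both assays 5 rose and 2 fell.

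Enzymes of detoxification and small-molecule metabolism were among the next largest rises. AKR1C1 and AKR1C2, aldo-keto reductases that reduce steroids and reactive carbonyls, rose by 2.35 ± 0.18 and 2.57 ± 0.28 in RNA, and by 2.33 and 2.49 in footprints. These genes are close copies of each other, and how reads shared between them were counted is not given in the sources used here. NNMT, which methylates nicotinamide, went from an RNA signal of 160 ± 36.7 to 874 ± 52.3 (SD, n = 3), and GFPT2, which feeds glucose carbon into the hexosamine pathway, from 589 ± 48.3 to 3020 ± 214. The antioxidant list as a whole was mixed, with 8 of 21 rising and 8 falling. DUSP1, a phosphatase that switches off MAP kinases, rose by 1.95 ± 0.07, and its relative DUSP6 fell by 0.96.

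**Figure D1:**
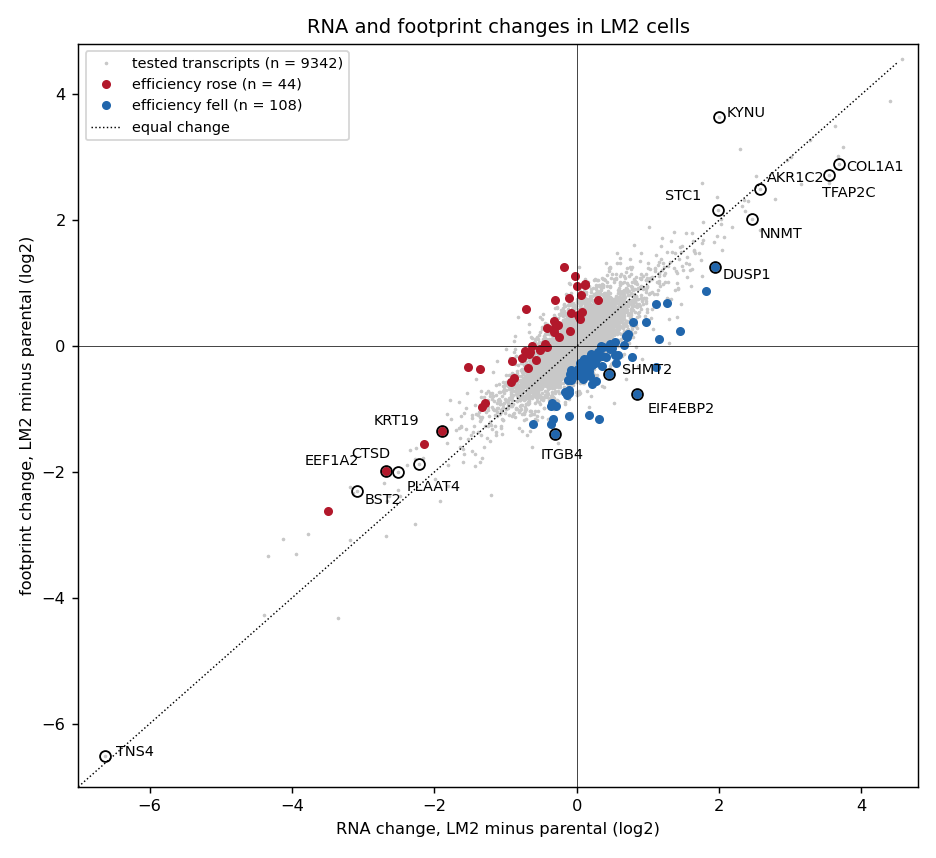
Change in footprints (vertical, log2) against change in RNA (horizontal, log2) between LM2 and parental cells for 9342 transcripts, with the 44 and 108 transcripts called for efficiency in red and blue and a choice of named transcripts ringed. Most transcripts lie along the dotted line of equal change, from TNS4 at the lower left to COL1A1 at the upper right, and EIF4EBP2, SHMT2 and ITGB4 lie below it.

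KYNU, an enzyme of tryptophan breakdown that belongs to published lung metastasis signatures of this line, had an RNA signal of 126, 121 and 158 in parental cells and of 557, 542 and 523 in LM2. Its footprint signal was 2.01, 2.06 and 6.88 in parental cells and 43.2, 49.0 and 62.0 in LM2. Footprints thus rose by 3.64 ± 0.34 and RNA by 2.0 ± 0.15 on the log2 scale. The efficiency difference of 1.64 ± 0.41 did not pass the test (limma, adjusted p = 0.0502), and the parental footprint signal behind it is very low.

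Genes tied to lung metastasis of this line in earlier work did not move one way. Of 11 tested members of that list 4 rose (KYNU, TNC, EREG and FSCN1), 5 fell (ID3, ANLN, ID1, KRT81 and LY6E), and LOX and ANGPTL4 did not pass the test. Among all named transcripts 26.7% rose and 41.4% fell. FSCN1, which bundles actin in cell protrusions, rose by 0.79 ± 0.04 in RNA. ID3, an inhibitor of helix-loop-helix factors, fell by 1.09. PITPNC1, a lipid transfer protein described as a metastasis gene in this line, had an RNA signal of 802, 923 and 933 in parental cells and 2657, 2746 and 2483 in LM2. It rose by 1.57 ± 0.07 in RNA and by 1.30 ± 0.26 in footprints, while the list of metastasis genes from studies of microRNAs and RNA-binding proteins that holds it had 3 rises and 10 falls among 16 tested. Among the falls in that list were SOX4 (by 1.30), ERRFI1, which restrains EGF receptor signalling (by 1.16), ADAM8 and ITGB4. PLAAT4, a retinoid-induced gene that this list did not include, fell by 2.51 ± 0.36 from an RNA signal of 184 ± 63.7 to 34.6 ± 22.4 (SD, n = 3).

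The largest fall was that of TNS4, a member of the tensin family. Its RNA signal was 11340, 11725 and 11866 in parental cells and 135, 92.0 and 129 in LM2. Its footprint signal was 511, 439 and 509 against 7.40, 5.67 and 1.74. RNA fell by 6.62 ± 0.10 and footprints fell by 6.50 ± 0.23 on the log2 scale, with adjusted p of 4.43e-21 and 6.27e-22 (limma). EEF1A2, the tissue-restricted isoform of the elongation factor that brings aminoacyl-tRNA to the ribosome, fell by 2.68 ± 0.06, from 6522 ± 162 to 1022 ± 108 (SD, n = 3). BMP4, a bone morphogenetic protein, fell by 2.34, and MET, the receptor of hepatocyte growth factor, by 1.47.

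**Figure D2:**
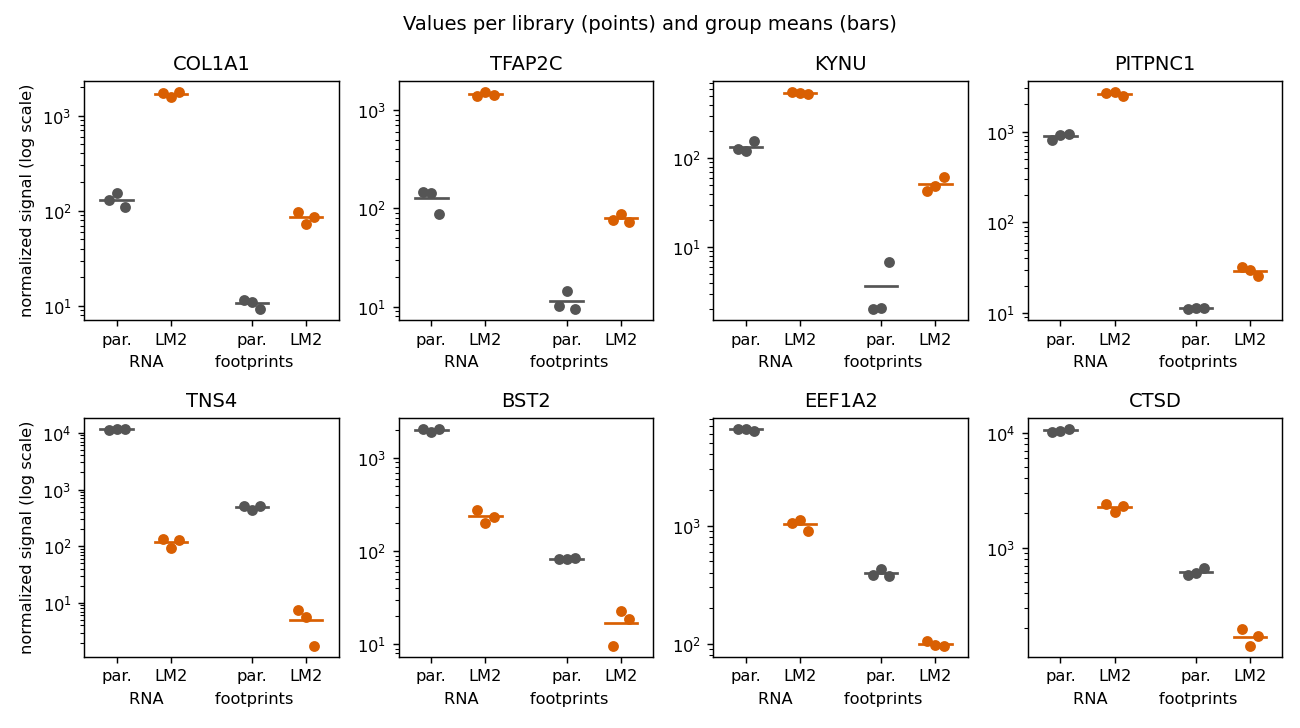
RNA and footprint signal (log scale) in each of the 3 parental (par.) and 3 LM2 libraries for 8 transcripts, with points for libraries and bars for group means. COL1A1, TFAP2C, KYNU and PITPNC1 are higher and TNS4, BST2, EEF1A2 and CTSD lower in every LM2 library than in any parental one.

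Epithelial genes fell. KRT19, a keratin of simple and luminal epithelia, fell by 1.90 ± 0.04, from an RNA signal of 11683 ± 566 to 3132 ± 129 (SD, n = 3). KRT7 fell by 1.33, and JUP, the plakoglobin of cell junctions, by 1.31. KRT18 and KRT81 fell by 0.23 and 0.32, so that 5 of 6 tested members of the epithelial list fell, and DSP (desmoplakin) rose by 0.76. The mesenchymal list was split, with 4 of 10 rising and 4 falling. SNAI2, a repressor of epithelial genes, rose by 1.16 ± 0.06, and the caveolae proteins CAV1 and CAV2 fell by 1.17 and 1.62.

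Transcripts of glycolysis fell, and those of lipid synthesis were mixed between falls and no call. Of 14 tested transcripts of glycolysis and glucose transport 12 fell and 0 rose, with a median of -0.30. SLC2A1, the glucose transporter GLUT1, had an RNA signal of 4711, 5187 and 5845 in parental cells and 2305, 1949 and 2170 in LM2, a fall by 1.29 ± 0.07. ENO1 and PGK1, enzymes of the lower part of the pathway, fell by 0.71 and 0.73 in RNA and by 0.92 and 1.03 in footprints, and footprints fell for 11 of the 14. LDHB and ALDOC did not pass for RNA. Of 25 transcripts of cholesterol and fatty acid synthesis 13 fell, 1 rose and 11 did not pass, where 41.4% of all named transcripts fell. SCD, which desaturates fatty acids, fell by 1.21, and FASN, the fatty acid synthase, fell by 1.12.

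Of 22 lysosomal transcripts 13 fell and 2 rose, where 41.4% of all named transcripts fell and 26.7% rose. CTSD, the protease cathepsin D, fell from 10476 ± 361 to 2247 ± 165 in RNA signal (SD, n = 3). With the spread estimated from all 12 libraries 7 of the 22 fell and 0 rose. Of 20 interferon-stimulated transcripts 9 fell, 10 did not pass and IRF9 rose by 0.38, a share of falls near that of all named transcripts (41.4%). Their footprints fell for 5 and rose for 1, and with a minimum mean of 50 RNA fell for 5 of 14. BST2 (tetherin), which holds budding viruses at the membrane, had an RNA signal of 2080, 1915 and 2043 in parental cells and 280, 202 and 234 in LM2, a fall by 3.08 ± 0.11. IFIT2 fell by 1.59, IFIH1, a sensor of double-stranded RNA, by 1.05, and IFIT1, IFIT3, OASL and ISG15 by 0.87 to 0.99. STAT2, which helps carry the interferon signal to the nucleus, did not pass the test, with a change of -0.11.

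The integrated stress response list went the other way, with 9 of 11 rising and 0 falling in RNA and a median of 0.33. It is made of ATF4 and genes that ATF4 and its partners are known to induce. CEBPB, a bZIP transcription factor, rose by 1.14, SLC7A11, the cystine transporter, by 0.76, PSAT1, an enzyme of serine synthesis, by 0.60 and ATF4 itself by 0.49. Footprints rose for 3 of these 11, ATF4, CEBPB and PSAT1, and fell for SHMT2. SESN2 and PPP1R15A did not pass for RNA, and with the spread estimated from all 12 libraries 6 rose.

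**Figure D3:**
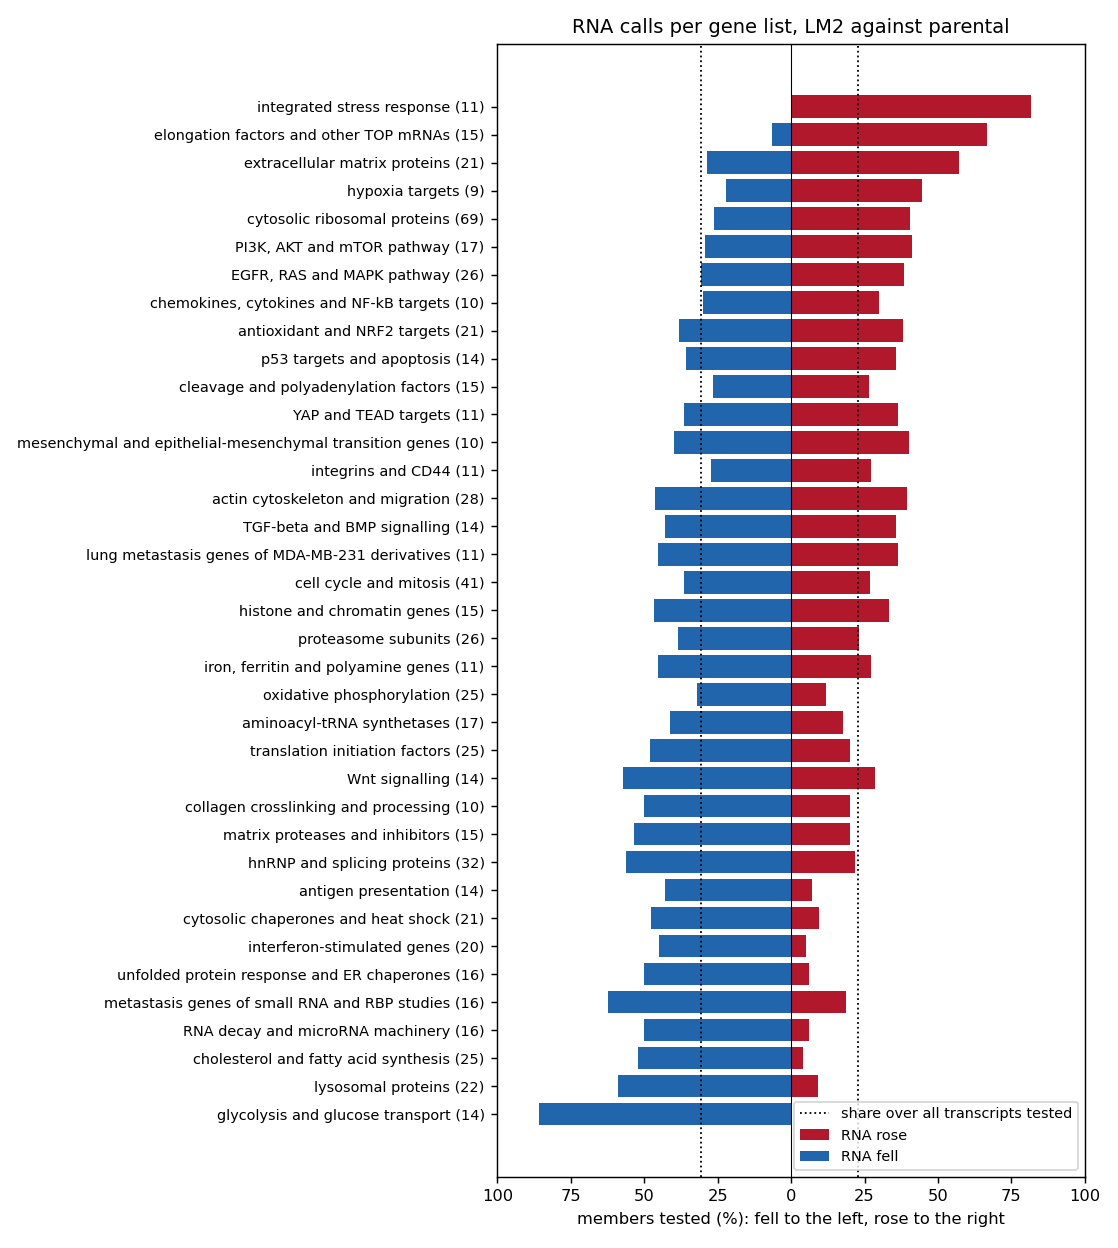
Share of tested members of each gene list whose RNA rose (right, red) or fell (left, blue) in LM2 cells, in percent, with the number tested in parentheses and dotted lines at the shares over all transcripts, 22.9% and 30.8%. The integrated stress response list has 9 of 11 rising and the glycolysis list 12 of 14 falling. Only lists with 9 or more tested members are drawn.

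Most transcripts called for RNA had no footprint call. Over all transcripts footprints rose for 9.25% and fell for 14.5%, which is 23.8% called. Of the 2142 transcripts whose RNA rose, 710 rose in footprints, 44 fell and 1388 did not pass, and of the 2875 whose RNA fell, 1136 fell, 4 rose and 1735 did not pass. Of the 314 named transcripts with higher RNA, 86 rose and 31 fell in footprints and 197 did not pass. Of the 487 with lower RNA, 306 fell and 0 rose in footprints and 181 did not pass. The 31 with opposite calls are 9.87% of the named RNA rises and part of the 44 of that kind, 2.05% of the RNA rises among all tested. Opposite calls of either kind came to 48 transcripts, or 0.514%, of all tested.

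Efficiency changed for few transcripts. It rose for 0.471% and fell for 1.16% of all tested (44 and 108 transcripts, 1.63% called), with a median change of 0.04, and among the named it rose for 5 and fell for 59. With each library centred on its median 25 rose and 168 fell. Without LM2 replicate 1, 265 fell, and without LM2 replicate 2 or 3 or parental replicate 1, 2 or 3 the falls numbered 16, 21, 25, 40 and 35. Among the falls that held in most alternatives were SHMT2, ITGB4, MCL1, NQO1 and PABPC1, each past the threshold in 17 of 18 alternatives. PDLIM5, MT2A and EIF4EBP2 passed in 16 of 18, 16 of 18 and 15 of 17. When footprints were set against RNA by replicate number and the variance trend followed mean efficiency, 0 transcripts passed limma's adjusted threshold (627 rose and 451 fell at an unadjusted p under 0.05), and with the trend on footprint level 35 rose and 149 fell.

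SHMT2, the mitochondrial enzyme that makes one-carbon units from serine, had RNA and footprints that moved in opposite directions. Its RNA signal was 10351, 10461 and 10288 in parental cells and 14145, 14451 and 14026 in LM2. Its footprint signal was 594, 562 and 665 against 450, 453 and 427. RNA was higher and footprints lower in all 3 LM2 replicates than in any parental one, and efficiency fell by 0.90 ± 0.08 on the log2 scale (limma, adjusted p = 8.65e-06).

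EIF4EBP2, a repressor that binds the cap-binding protein eIF4E and is itself controlled by mTOR, had the largest named fall in efficiency. Its RNA signal was 5798, 5560 and 5752 in parental cells and 10098, 10194 and 10467 in LM2, while its footprints were 57.3, 30.5 and 32.9 against 21.7, 18.4 and 28.4. Efficiency fell by 1.60 ± 0.24 (limma, adjusted p = 0.00142). The footprint signal of this transcript is low for its RNA in both lines, and its parental replicate 1 lies apart from the other two.

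Several adhesion receptors and their ligands had efficiency falls. ITGB4, the integrin chain of hemidesmosomes, had an RNA signal of 1960, 2024 and 2237 in parental cells and 1790, 1576 and 1662 in LM2. Its footprints were 67.2, 85.1 and 81.0 against 31.8, 25.9 and 28.8, and efficiency fell by 1.09 ± 0.16 (limma, adjusted p = 0.00127). CD44, the hyaluronan receptor, rose by 0.26 in RNA, and its footprints fell from 146 ± 26.8 to 97.9 ± 1.90 (SD, n = 3), an efficiency fall by 0.82 ± 0.14. That call was lost without LM2 replicate 2, LM2 replicate 3 or parental replicate 1. ITGA3, the laminin-binding integrin chain, fell by 0.44, so that 3 of 11 tested members of the integrin list fell in efficiency and 0 rose. Efficiency fell for 1.16% of all tested and 5.02% of named transcripts. The ITGA3 call was kept in 10 of 18 alternatives. Among the laminins, ligands of these integrins, LAMB3 and LAMA5 fell by 0.67 and 0.60 in efficiency, and LAMB1 and LAMC1 did not pass, with values of -0.07 and -0.17. The LAMB3 and LAMA5 calls were kept in 9 of 18 alternatives each, and in the matrix list 0 transcripts fell in efficiency (limma) under the replicate block, without a variance trend, and without LM2 replicate 2 or 3 or any 1 parental replicate. MRC2, a collagen receptor, fell by 1.47 ± 0.36, a call lost when any 1 of the 6 replicates was left out.

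PDLIM5, HNRNPC and PABPC4 are genes of interest to the study, which knocks HNRNPC down in its other experiment. PDLIM5, a cytoskeletal scaffold with PDZ and LIM domains, had an RNA signal of 5578, 5517 and 5462 in parental cells and 4410, 4435 and 4110 in LM2. Its footprints were 349, 349 and 406 against 183, 193 and 195. RNA fell by 0.35 ± 0.04, footprints by 0.94 ± 0.09 and efficiency by 0.59 ± 0.09 (limma, adjusted p = 0.00257 for efficiency). PABPC4, a cytoplasmic poly(A)-binding protein, fell by 0.53 in RNA and 0.63 in footprints, and its efficiency difference of -0.10 ± 0.08 did not pass (limma, adjusted p = 0.653). HNRNPC, a nuclear protein that coats pre-mRNA, had an RNA signal of 14731 ± 92.2 in parental and 13747 ± 742 in LM2 cells (SD, n = 3), a fall by 0.10 ± 0.04 (limma, adjusted p = 0.0241), and neither its footprints nor its efficiency passed the test. The names of PDLIM5 and HNRNPC each rest on a single listed ID among several that were tried.

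Efficiency also fell for single genes of several kinds, among them MCL1, NQO1, MT2A, DUSP1, PRDX6, FSCN1, CDK1, H3-3B and KMT2C. The calls of FSCN1, CDK1, H3-3B and KMT2C were kept in only 8, 9, 10 and 10 of 18 alternatives. Those of DUSP1 and PRDX6 were kept in 12 and 15. MCL1, an anti-apoptotic protein, rose from 10049 ± 117 to 16491 ± 291 in RNA signal (SD, n = 3), while its footprint signal was 351 ± 3.84 and 399 ± 11.2, and efficiency fell by 0.53. NQO1, a quinone reductase, rose by 0.71 in RNA with footprints at 339 ± 10.6 and 374 ± 9.51 (SD, n = 3), and its efficiency fell by 0.57. MT2A, a metallothionein, rose by 0.55 in RNA, with footprints that overlapped between the lines, and fell by 0.81 in efficiency. DUSP1 rose in both assays and fell by 0.69 in efficiency.

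The 5 named rises in efficiency ranged from 0.35 to 0.69, and 4 were in transcripts whose RNA fell. EEF1A2 and KRT19 rose by 0.69 ± 0.11 and 0.55 ± 0.09 in efficiency (limma, adjusted p = 0.00367 for both), ANKRD1, a target of YAP, by 0.39 and KRT7 by 0.35. For all 4 footprints fell by less than RNA did. The exception was NSD1, a histone methyltransferase, which rose in RNA, footprints and efficiency, the last by 0.43 ± 0.11, and whose call was lost in 13 of 18 alternatives. The calls of EEF1A2 and KRT19 were each kept in 15 of 18, and those of ANKRD1 and KRT7 in 11.

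Ribosomal protein and other listed TOP transcripts moved together in efficiency. Of 69 tested cytosolic ribosomal protein transcripts, 28 rose and 18 fell in RNA, with a median change of 0.06. Their footprints fell for 54 and rose for 0, with a median of -0.34 against -0.0011 over all transcripts. Over all named transcripts the footprint median was -0.14, with 32.5% falling. Over the 498 transcripts outside both lists with a mean RNA signal of 10000 or more it was -0.21. Without a variance trend 9 of the 69 fell in footprints and 0 in efficiency, and with a replicate block 52 fell in footprints and 1 in efficiency. Efficiency fell for 23 and rose for 0, and all 69 had a negative value, from -0.72 to -0.13 with a median of -0.39. Over all 9342 transcripts efficiency fell for 1.16%, 42.3% had a negative value and the median was 0.04. Among all named transcripts it fell for 5.02%. Among the 498 transcripts outside both lists with a mean RNA signal of 10000 or more, 68.7% had a negative value and the median was -0.08. Of 15 elongation factors and other TOP mRNAs 10 rose and 1 fell in RNA, 8 fell in footprints, and 7 fell in efficiency with a median of -0.38 and all 15 negative. Without a variance trend 0 of these 15 fell in footprints and 1 in efficiency. This second list also holds VIM, a TOP mRNA that encodes no translation factor. It leaves out EEF1A2, an elongation factor that went the other way, falling in RNA and rising in efficiency as given above. Among the 17 ribosomal proteins whose IDs were written before values were seen, 5 fell in efficiency and the median was -0.39.

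Most of these genes hold, at or near the annotated start, a run like the feature that defines the class. The lines below give 15 bases before and 15 from the annotated gene start on, 5′ to 3′ on the gene's strand, from RefSeq promoters of GRCh38.p14. They cover 6 list members with the largest called efficiency falls among those in the promoter table whose replicates did not overlap between lines. Genes of the chromosome that carries PABPC1 were left out of this choice, so PABPC1 is not shown although it fell by more than EEF1A1. Capitals mark a C that starts within 5 bases of the annotated start and is followed by C or T to a run of at least 6.
RPS24, chr10:78033848-78033877, plus strand: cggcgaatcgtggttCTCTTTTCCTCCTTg
EEF1A1, chr6:73521018-73521047, minus strand: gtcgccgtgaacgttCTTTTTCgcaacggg
RACK1, chr5:181243892-181243921, minus strand: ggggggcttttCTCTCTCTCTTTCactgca
TPT1, chr13:45341169-45341198, minus strand: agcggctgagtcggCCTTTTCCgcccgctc
RPL24, chr3:101686704-101686733, minus strand: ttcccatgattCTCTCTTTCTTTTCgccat
RPL29, chr3:51995881-51995910, minus strand: caccgcagccCCTTTCTCTTCCggttctag

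The same windows of 4 genes outside these lists with called efficiency falls, chosen in the same way, hold no such run. They are the largest falls only among the genes that this choice left. MRC2, ITGB4 and SHMT2 had efficiency changes of -1.47, -1.09 and -0.90, larger falls than that of CD44 (-0.82). Their windows are not shown.
EIF4EBP2, chr10:70404130-70404159, plus strand: ctcccgccttcgcccgcttccggtcgtcgt
KMT2C, chr7:152435989-152436018, minus strand: gcccctgcgcgcggaggtgcgcgcgcccgc
CD44, chr11:35139156-35139185, plus strand: aacttccgaggcagcctcattgcccagcgg
MT2A, chr16:56608569-56608598, plus strand: gccgcgctgcactccaccacgcctcctcca

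Such a run, searched on the gene's strand only, stood in 47 of the 65 tested members of both lists with a promoter in the table (72.3%). It stood in 11.05% of all 27305 promoters. Of the 18 other named genes with a promoter there whose efficiency fell, 2 held such a run (11.1%). The run was in 18 of 25 list members with a promoter there whose efficiency fell (72.0%), close to the share in the lists as a whole. A match describes these letters and is not a measured start site.

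RPS24, a protein of the small subunit, had the largest called fall in the list. Its RNA signal was 15072, 13950 and 13991 in parental cells and 20369, 22123 and 21510 in LM2, and its footprints were 484, 448 and 550 against 515, 437 and 394. RNA rose by 0.57 ± 0.04, footprints overlapped between the lines, and efficiency fell by 0.71 ± 0.12 (limma, adjusted p = 0.00367). EEF1A1, the general elongation factor, had an RNA signal of 222390 ± 2575 and 246620 ± 4628 and footprints of 2932 ± 225 and 2201 ± 294 in parental and LM2 cells (SD, n = 3), and its efficiency fell by 0.57 ± 0.11. PABPC1, the main poly(A)-binding protein and itself a TOP mRNA, fell by 0.59 ± 0.07, with efficiencies of -6.72, -6.68 and -6.76 in parental and -7.30, -7.33 and -7.30 in LM2 cells. RPL37, TPT1 and RACK1 fell by 0.66, 0.52 and 0.53. In both lists 21 transcripts had RNA that rose and footprints that fell, of 44 among all tested.

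**Figure D4:**
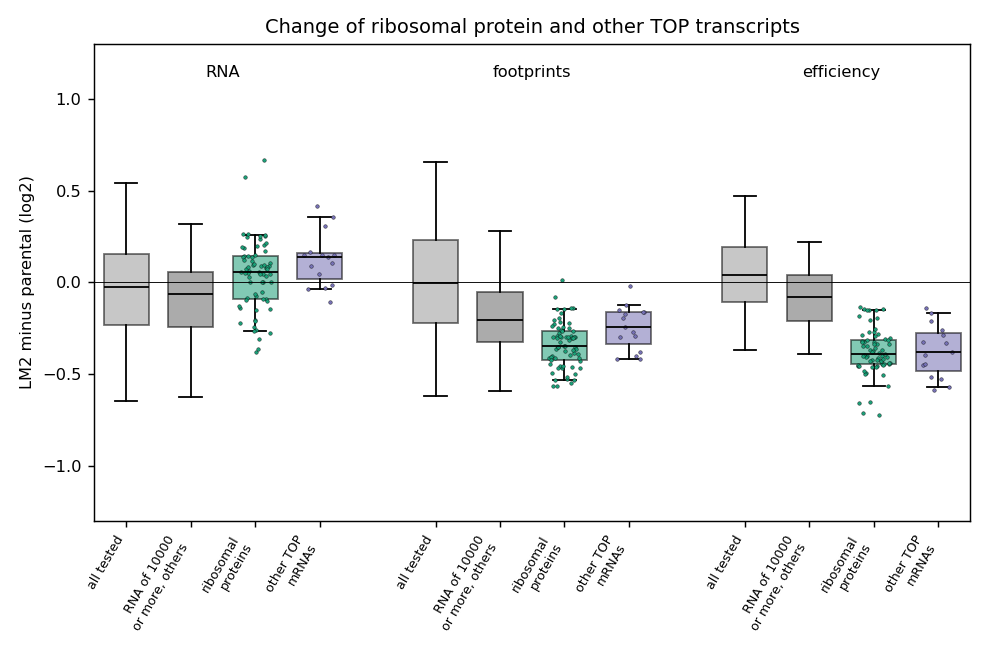
Change between LM2 and parental cells (log2) in RNA, footprints and efficiency for all tested transcripts, for the 498 others with a mean RNA signal of 10000 or more, for 69 ribosomal proteins and for 15 other TOP mRNAs. Boxes are quartiles, whiskers the 5th and 95th percentiles and points single transcripts, and the ribosomal protein medians are 0.06, -0.34 and -0.39.

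The size of this pattern differed between replicates. The median efficiency of the 69 ribosomal protein transcripts, taken minus that of all transcripts in the same replicate, was -1.04, -0.95 and -0.88 in the parental replicates and -1.17, -1.55 and -1.56 in LM2. LM2 replicate 1 thus lay closer to the parental replicates than to the other 2 of its own line, although the lines did not overlap. The ribosomal protein share of all footprint signal was 3.57%, 3.62% and 3.86% in parental cells and 3.51%, 2.97% and 2.95% in LM2, and their share of RNA signal was 6.96%, 6.75% and 6.82% against 7.22%, 7.23% and 7.31%. Without LM2 replicate 1, 62 of the 69 fell in efficiency, and without LM2 replicate 2 or 3 that number was 0 and 1. Leaving out parental replicate 1, 2 or 3 gave 3, 5 and 1. These transcripts move together within a library, so their number does not add replicates.

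**Figure D5:**
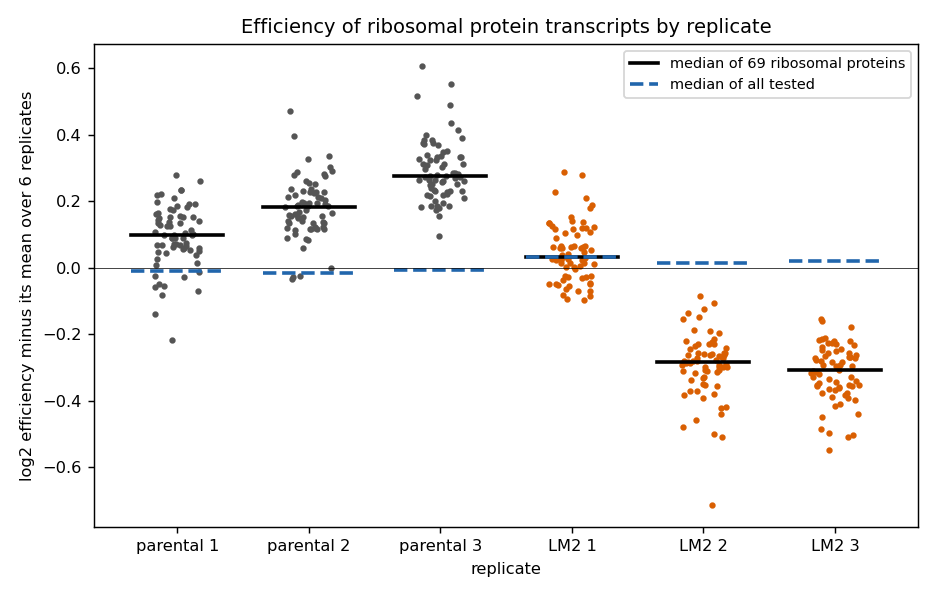
Log2 efficiency of each of 69 ribosomal protein transcripts in each replicate, minus its own mean over the 6 replicates. Black bars are medians of these transcripts and dashed bars medians of all tested transcripts. LM2 replicates 2 and 3 lie lowest, and LM2 replicate 1 lies next to the parental replicates.

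Abundance moved with efficiency. Of 84 tested members of both lists 78 had a mean RNA signal of 10000 or more, not adjusted for length, against 6.17% of all transcripts. Among the 498 transcripts above that level outside the lists the median efficiency change was -0.08, with 27 falls and 8 rises, and the median footprint change was -0.21. For RNA signals from 300 to 1000 the median efficiency change was 0.08. ACTB (cytoskeletal actin) fell by 0.53 ± 0.12, but had 0.03 under quantile normalization, and CCND1 (cyclin D1) fell by 0.46. The part of abundance in the ribosomal protein result was not tested. Under quantile normalization, which sets the highest values of all libraries equal, the efficiency median of the ribosomal proteins was -0.24 with 19 falls, the footprint median -0.13 with 23 falls and 1 rise, and the footprint median of the other TOP mRNAs 0.03 with 1 rise and 0 falls. Ribosomal protein genes and EEF1A1 also have many near-identical pseudogene copies, so their counts are uncertain where reads were shared.

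Other parts of the translation and RNA machinery are to be read beside the shares whose efficiency fell, 1.16% of all tested and 5.02% of named transcripts. Of 25 translation initiation factors 2 fell in efficiency, EIF4A2 by 0.35 and EIF5A by 0.32, with calls kept in 7 and 9 of 18 alternatives. Aminoacyl-tRNA synthetases, which load tRNAs, had 0 of 17 calls in efficiency with limma, and proteasome subunits 0 of 26. Splicing and hnRNP proteins fell in RNA for 18 of 32, where 41.4% of all named transcripts fell, and in efficiency for RBM39 and SRSF2. Median efficiency changes were -0.01 for initiation factors, 0.03 for synthetases, -0.02 for the proteasome and -0.14 for splicing proteins, and the negative ones turned positive under quantile normalization. The difference between these lists and the ribosomal proteins was not tested.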

How the data were processed

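Ribo-seq and RNA-seq were run on lysates of parental MDA-MB-231 and LM2 cells. Per the labels' protocols, cycloheximide was present during lysis, footprints followed McGlincy and Ingolia, and a SMARTer Pico kit made the RNA libraries. The submitters' processing notes list Bowtie2 2.3.5, cutadapt 2.3, SAMtools and UMI-tools, without roles, and the hg38 build. The authors deposited 1 normalized signal per transcript and library. How values were scaled, which annotation was used and how shared reads were counted is not given in the sources used here. RNA values were whole multiples of a step, but footprint values were not, so no count model was run.

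Values were tested as log2(value + 1) with limma 3.58.1 in R 4.3.3, with a variance trend, two-sided, with Benjamini-Hochberg adjustment over 9342 transcripts at 0.05. Efficiency was the interaction of assay and line over 12 libraries. Error is the standard error for log2 changes and the SD over 3 replicates for levels. The fits were tested on simulated data. The other 12 columns of values, from the knockdown experiment, were not used.

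The plan allowed names only through the reference tables. None matched, so names came from a hand-written table of known transcript IDs, a departure from the plan. Members and lists were chosen with earlier results of these data known. The text names HNRNPC, PABPC4 and PDLIM5, the 12 largest non-overlapping changes per direction and readout, the 3 largest RNA changes per list and direction, list members called for efficiency, and up to 10 transcripts called in opposite directions. Other list members were named after their values were seen. Some genes that the rule names are not reported here. Start sequences are RefSeq's for GRCh38.p14.

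Alternatives were the pseudocount, the filter, TMM, quantile and median scaling, array weights, no variance trend, the spread of all libraries, a replicate block and leaving out each replicate.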

Additional observations from a re-analysis of the deposited data

How the results depend on the processing

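Counts of calls depended on the fit more for efficiency than for RNA. With a minimum mean of 50, RNA rose for 1193 and footprints for 550 transcripts. Quantile normalization gave 73 efficiency rises, and median centring gave 25 rises and 168 falls. Without a variance trend there were 499 footprint rises and 674 falls, with 6 efficiency rises and 12 falls. Array weights gave 86 efficiency rises and 225 falls. With the spread from 12 libraries, RNA rose for 995 and fell for 1706, and footprints rose for 1550. Leaving out 1 replicate at a time gave 1871 to 2066 RNA rises and 2572 to 2706 falls, 541 to 800 footprint rises and 975 to 1363 falls, and 9 to 45 efficiency rises and 16 to 265 falls. Footprint rises were fewest without LM2 replicate 2 (548) or 3 (541). The cause was not tested.

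Same-numbered samples showed little shared deviation: across transcripts, deviations of same-numbered LM2 and parental libraries correlated at -0.20, 0.00 and 0.03 for RNA and -0.02, 0.01 and 0.00 for footprints. Same-numbered RNA and footprint libraries correlated at 0.04, 0.11 and 0.02 in LM2 and 0.06, -0.0061 and 0.06 in parental cells, 5 of 6 positive. Since not every pair was above 0.1, the numbers were not taken as pairs. With a replicate block 11 transcripts rose and 32 fell in efficiency, and of the 59 efficiency calls (54 falls and 5 rises) of genes named by the rule 45 were lost. With the replicate block by lysate and the trend on mean efficiency 0 rose and 0 fell (627 and 451 at an unadjusted p under 0.05 in limma).

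Under quantile normalization 5 named values changed sign: RNA of EEF1B2 to 0.0204 and of RPS26 to 0.00733, footprints of ACTB to 0.0273 and of RPL5 to 0.0215, and efficiency of ACTB to 0.0273. Footprint depth is unknown, and low footprint signals, as for KYNU, TNS4 and EIF4EBP2, limit the efficiency values.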
